A study of Mus musculus with 6 samples.

Results

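Chromosome 4 of the mouse was described along its length in 3 clonal B cell lines, as 554 genes placed by their start in 16 consecutive windows of 10 Mb. These were the genes on chromosome 4 with at least 20 allelic counts, maternal plus paternal, in each of 6 RNA-seq libraries, and they are called members below. That rule was met by 554 of 1295 chromosome 4 genes with allelic counts, and by 8703 of 19402 genes over all chromosomes. The first member by position was Tgs1, an RNA cap methyltransferase, and the last was Samd11. The chromosome was chosen by the measured maternal share of its counts in one line, Abl.2, where nearly all were maternal, so the maternal share in Abl.2 is given below as a description with no test.

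The lines were immortalised B cells of F1 hybrid mice from 129S1/SvImJ and CAST/EiJ parents. By their labels Abl.3 came from a male and the other two from females. Every line carried the label control for drug treatment, grew in medium with 1% DMSO, a solvent, and were harvested on day 2 as live cells from a density gradient. Each line is 1 clone with 2 libraries, replicates of the library preparation by their labels, so every test below covers the error between library preparations and not the spread between clones or animals.

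In diploid cells most autosomal genes are transcribed from both parental copies, and in an F1 hybrid the copies can be told apart by the single-base differences between the parental strains. Imprinted genes use the copy from one parent, and some other autosomal genes use a single copy that differs from clone to clone and is kept through cell division. These forms act on single genes or small clusters, and a profile along a chromosome shows whether a bias is local or spans it. Allelic counts come from RNA, and DNA was not analysed here.

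Allelic counts per library ran from 18362319 to 26881211 over all genes, and from 1391419 to 1988458 over the members, with a median of 861 to 1405.5 counts per member. All 9 B-lineage markers tested, among them Cd79a, Cd79b and Pax5, were at 1 TPM (transcript abundance corrected for gene length and scaled to a fixed library total) or more in every library, with sums of 12571.5 to 13960.2 TPM. All 5 T-lineage, 3 erythroid and 3 fibroblast markers were below 1 TPM in every library. Of 4 myeloid markers Lyz2 (lysozyme) alone reached 1 TPM in every library, and Csf1r and Mpo stayed below 1 TPM. Itgam, an integrin gene, was at 6.89 and 6.74 TPM in Abl.4 and below 1 TPM in Abl.2 and Abl.3. The sum of these 4, most of it Lyz2, was 159 to 193 TPM in Abl.2, 75.0 to 97.2 in Abl.3 and 77.9 to 89.4 in Abl.4. In bulk RNA such a difference cannot tell more cells of a type from more RNA per cell.

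Promoter sequence is shown for 4 members on which the results below turn. Dnajb5 and Clta lie near opposite ends of a stretch that kept paternal counts in Abl.2, Vcp lies inside it with almost none, and Aco1 switched allele between the other lines. RefSeq promoters (250 bases before to 50 after a start, GRCm38.p6) were matched for 439 of 554 members. Capitals mark CG pairs, the dinucleotide that DNA methylation acts on and that reads the same on both strands. The lines give, 5′ to 3′, Dnajb5 (chr4:42949617-42949916, plus strand), Vcp (chr4:43000458-43000757, minus strand), Clta (chr4:44004193-44004492, plus strand) and Aco1 (chr4:40143015-40143314, plus strand).
Dnajb5: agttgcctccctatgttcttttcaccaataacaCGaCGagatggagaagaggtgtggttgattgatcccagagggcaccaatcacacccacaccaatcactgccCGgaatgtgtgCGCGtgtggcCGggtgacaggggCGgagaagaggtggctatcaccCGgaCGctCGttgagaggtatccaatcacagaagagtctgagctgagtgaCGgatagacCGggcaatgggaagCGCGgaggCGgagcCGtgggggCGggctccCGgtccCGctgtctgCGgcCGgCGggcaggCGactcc
Vcp: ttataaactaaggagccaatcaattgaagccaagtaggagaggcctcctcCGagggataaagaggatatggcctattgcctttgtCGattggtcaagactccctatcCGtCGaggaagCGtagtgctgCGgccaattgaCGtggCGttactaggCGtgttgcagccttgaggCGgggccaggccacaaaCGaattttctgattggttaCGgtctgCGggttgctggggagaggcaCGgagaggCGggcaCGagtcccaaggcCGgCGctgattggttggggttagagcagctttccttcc
Clta: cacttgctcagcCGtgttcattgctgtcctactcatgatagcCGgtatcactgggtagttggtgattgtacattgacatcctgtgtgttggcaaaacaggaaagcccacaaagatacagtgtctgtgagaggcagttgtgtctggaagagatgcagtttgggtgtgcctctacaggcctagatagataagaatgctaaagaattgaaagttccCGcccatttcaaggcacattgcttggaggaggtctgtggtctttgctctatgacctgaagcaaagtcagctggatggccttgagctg
Aco1: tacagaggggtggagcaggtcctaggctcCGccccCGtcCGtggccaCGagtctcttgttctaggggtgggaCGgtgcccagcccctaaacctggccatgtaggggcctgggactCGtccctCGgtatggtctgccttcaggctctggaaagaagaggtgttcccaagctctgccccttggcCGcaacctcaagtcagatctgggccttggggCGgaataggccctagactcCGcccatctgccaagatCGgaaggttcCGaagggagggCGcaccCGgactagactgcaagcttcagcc
Dnajb5 held 23 CG pairs, a number reached by 21.5% of the 32851 promoters in the table. Vcp held 18, reached by 29.7% of promoters. Aco1 held 14, reached by 36.3%, and Clta 3, reached by 76.7%. The median promoter held 7 CG pairs. DNA methylation was not measured in the data used here.

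Summed over the members, 99.5% and 99.6% of chromosome 4 counts in the libraries of Abl.2 were maternal. Abl.3 gave 49.5% and 49.6%, and Abl.4 50.8% and 50.8%. In Abl.2 the median member had a maternal share of 0.998, 522 of 554 members were at 0.99 or above, and 3 lay between 0.3 and 0.7. In Abl.3 and Abl.4 the medians were 0.507 and 0.499, and 498 and 509 members lay between 0.3 and 0.7. In the authors' deposited table of allelic imbalance, 537 members had an estimate in Abl.2, of which 521 were at 0.99 or above and 486 had a lower confidence limit of at least 0.9.

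As means of both libraries, all 16 windows of Abl.2 lay between 98.0% and 99.8% maternal, from the window of Tgs1 to that of Samd11. The lowest was the window from 40 to 50 Mb, at 98.0% ± 0.027 (SD, n = 2) over 60 members. Next came the window from 70 to 80 Mb, at 98.9% ± 0.23 over only 4 members, where the centrosome gene Cdk5rap2 held 96.3% of the paternal counts. The window from 90 to 100 Mb, at 99.4% ± 0.11 over 17 members, owed 71.3% of its paternal counts to 1 predicted gene, Gm12666. Each of the other 13 windows was at 99.7% or 99.8% after rounding. No window of Abl.2 came near the range of Abl.3, 45.4% to 52.8%, or of Abl.4, 41.7% to 55.7%.

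**Figure D1:**
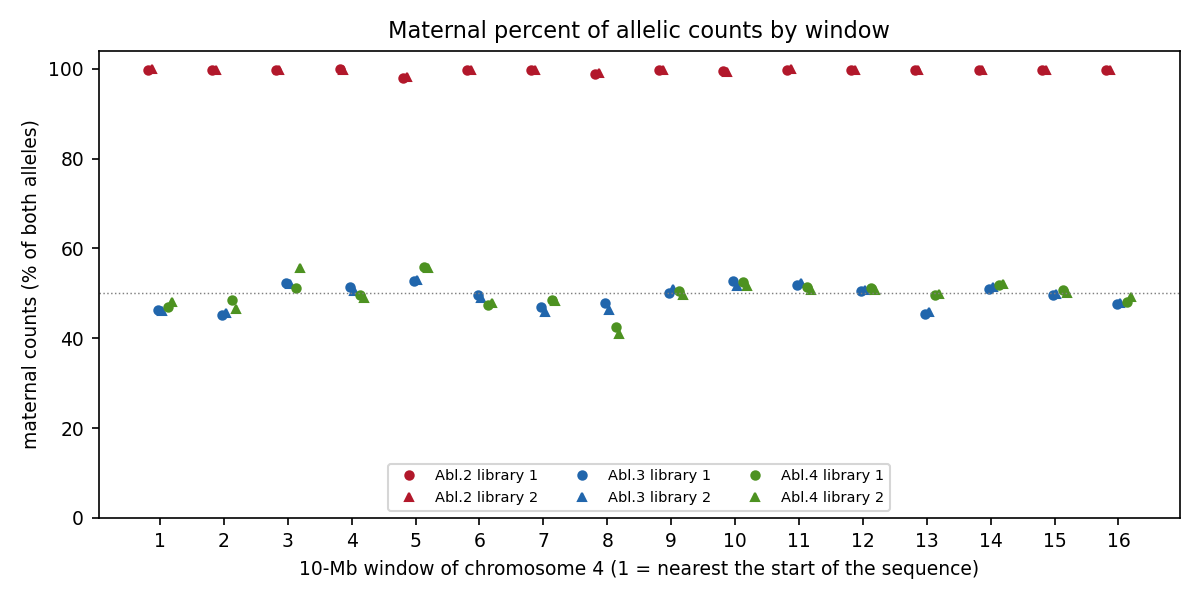
Maternal counts as a percent of both alleles (vertical axis) in each 10-Mb window of chromosome 4 (horizontal axis), 1 point per library. As means of the 2 libraries, the 16 windows of Abl.2 lie between 98.0% and 99.8%, and those of Abl.3 and Abl.4 between 41.7% and 55.7%.

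Between Abl.3 and Abl.4 the summed counts of some windows differed, and the median member share of these windows is given beside them. The window from 120 to 130 Mb was 45.6% ± 0.22 maternal in Abl.3 and 49.7% ± 0.19 in Abl.4, a gap larger than the spread between libraries. Mrps15, a mitochondrial ribosomal protein gene described below, lies there. Its 2588 and 2746 counts in Abl.3, nearly all paternal, were a small part of the window's 170790 and 156844. The median member share of that window ran the other way, at 0.517 ± 0.005 in Abl.3 and 0.507 ± 0.005 in Abl.4. In the window from 40 to 50 Mb the sum was 52.8% ± 0.045 in Abl.3 and 55.7% ± 0.072 in Abl.4. Its median member share was 0.516 ± 0.009 and 0.507 ± 0.005, with overlapping libraries. The widest gap was that of the window from 70 to 80 Mb, with 4 members, where the sum was 47.1% ± 1.15 in Abl.3 and 41.7% ± 1.05 in Abl.4. There the median member share was 0.464 ± 0.030 and 0.430 ± 0.026, and the libraries of the lines overlapped, so no direction is read from it. From 50 to 60 Mb the sums were 49.2% ± 0.45 and 47.5% ± 0.33. The median shares, 0.501 ± 0.015 and 0.490 ± 0.012, again had overlapping libraries. Which members make up these gaps was not tested.

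The paternal counts that remained in Abl.2 were few. They were 8052 of 1684168 counts in library 1, or 0.478% (95% Wilson interval 0.468 to 0.489), and 8837 of 1988458 in library 2, or 0.444% (0.435 to 0.454). Such intervals cover counting error alone, because these reads carry no molecular identifiers and repeated copies of a molecule count again. As a level of counts assigned to the wrong allele, the minor allele of 222 X genes in the male line Abl.3, which should have 1 X, took 0.394% and 0.305%. In the female lines the same X genes gave 1.17% and 1.28% in Abl.2, and 1.42% and 1.59% in Abl.4. The sums of chromosome 4 in Abl.2 and of the male X are given side by side only. Without the 10 members with the most paternal counts, which were chosen by the value itself, the sums of chromosome 4 were 0.275% and 0.232%, and the X genes were not trimmed in that way. The median member, which is not a summed value, had 0.198% paternal counts in Abl.2, and 86 members had no paternal count in either library.

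Residual paternal counts were concentrated in few members. The 10 members with the most held 53.0% of them and 14.1% of all member counts. A paternal share of at least 0.01 was found in 32 members, and of at least 0.1 in 9. With a minimum of 50 counts in place of 20 the latter count was 5. The last inside that line was Glipr2 at 0.159, and the first outside was Pigo, a gene of glycolipid anchor synthesis, at 0.0797.

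Within 1134 kb from Dnajb5 to the end of Gne (chr4:42949814-44084177), 18 members held 50.5% of the paternal counts of the chromosome and 6.72% of its counts. In this stretch 11 of 18 members were at a paternal share of 0.01 or above, against 21 of 536 elsewhere. The stretch as a whole was 3.43% and 3.48% paternal in the libraries of Abl.2, and the rest of the chromosome 0.266% and 0.225%. The stretch was picked after its values had been seen, and these counts are a description.

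Clta, the clathrin light chain A gene, held the most paternal counts of all members. Its paternal counts were 1323 of 2491 and 1795 of 3224 in Abl.2, which gave maternal shares of 0.469 and 0.443. In Abl.3 its maternal shares were 0.206 and 0.227, and in Abl.4 0.221 and 0.231. By counts Clta was thus mostly paternal in Abl.3 and Abl.4, and near equal in Abl.2. Whether counts assigned to the wrong allele entered its shares, or those of other members of the stretch, was not tested. Scaled to the other autosomes, its paternal output in Abl.2 was 0.518 times that of the other lines and its maternal output 1.53 times. The abundance of Clta was 236 and 231 TPM in Abl.2, 265 and 262 in Abl.3, and 289 and 257 in Abl.4, and did not pass the test below (adjusted p = 0.0655, limma).

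Dnajb5, which encodes a member of the Hsp40 family of chaperones, had maternal shares of 0.325 and 0.352 in Abl.2. The libraries of Abl.3 gave 0.192 and 0.109, and those of Abl.4 0.216 and 0.145. Its paternal output in Abl.2 was 1.32 times that of the other lines, and its maternal output 3.45 times. Hint2, a mitochondrial nucleotide hydrolase gene, had maternal shares of 0.759 and 0.768 in Abl.2, above 0.326 and 0.315 in Abl.3 and 0.453 and 0.379 in Abl.4. Glipr2, a Golgi-associated protein gene, was at 0.847 and 0.835 in Abl.2, 0.493 and 0.529 in Abl.3, and 0.467 and 0.446 in Abl.4. Fam221b had only 35 and 43 counts in Abl.2, with a mean maternal share of 0.407, beside 0.332 in Abl.3 and 0.408 in Abl.4. Of these 5 members 4 share no 50-base word with other genes, and Fam221b shares 10.2%, which puts it among the members with at least 10% shared that are counted below.

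The other 13 members of the stretch ranged from almost wholly maternal in Abl.2 to several percent paternal. Vcp, an ATPase that extracts proteins for degradation, lies close to Dnajb5 and had 0.280% and 0.200% paternal counts of 35298 and 42994. In Abl.3 and Abl.4 its mean maternal shares were 0.534 and 0.540. Its transcripts share 40.5% of their 50-base words with other genes, mostly Vcp-rs, so its counts are uncertain. Further members of the stretch at a mean of 0.299% or less were 1700022I11Rik, the DNA repair gene Fancg, Stoml2, Gm26643, Sit1 and Ccdc107. Pigo, which lies between Fancg and Stoml2, had 8.93% and 7.01% paternal counts. Gne, next to Clta and an enzyme gene of sialic acid synthesis, had 1.78% and 1.66%, Arhgef39 had 1.08% and 1.29%, and Fam214b had 0 of 74 and 2 of 57 counts. Cd72, a B cell coreceptor that dampens receptor signalling, had 1.61% and 1.20% paternal counts, and Tesk1, a kinase gene that overlaps it, had 3.93% and 2.96%. Counts of overlapping genes can enter both, and use of strand in the counting is not given in the sources used here. Over the whole chromosome, 281 members overlapped another annotated gene, 19 of them at a paternal share of 0.01 or above, and 13 of the 273 without an overlap were.

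**Figure D2:**
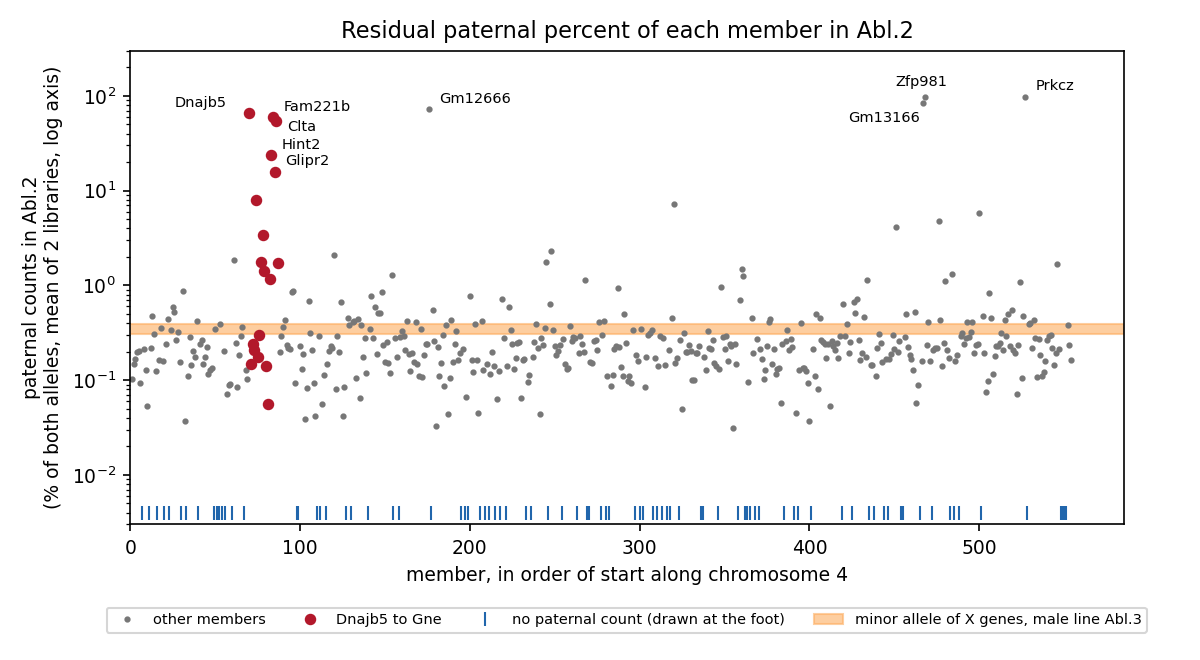
Paternal percent of each member in Abl.2 (vertical axis, log scale, mean of 2 libraries) in the order of the members along chromosome 4 (horizontal axis). Red points are the 18 members from Dnajb5 to Gne, blue marks the 86 members with no paternal count, and the band is the minor allele of X genes in the male line, 0.305% to 0.394%.

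The other 4 members with a paternal share of at least 0.1 were elsewhere on the chromosome, Zfp981 and Gm13166 within 1 window. By their mean shares they were mostly paternal in every line. Zfp981, a zinc finger gene, had 49 and 36 paternal and 0 and 1 maternal counts in Abl.2, and mean maternal shares of 0 in Abl.3 and 0.005 in Abl.4. Prkcz, a protein kinase C gene, had 20 and 31 paternal and 0 and 1 maternal counts in Abl.2, and no maternal count in any library of Abl.3 or Abl.4. Gm13166 was at a mean maternal share of 0.167 in Abl.2, beside 0.145 in Abl.3 and 0.287 in Abl.4, and Gm12666 at 0.270 beside 0.235 and 0.279. For these 4 the Abl.2 share lay between or near those of the other lines, unlike that of Clta, Hint2 or Glipr2. All 4 share sequence with other genes, at 40.0% of 50-base words for Zfp981, 14.8% for Prkcz, 70.5% for Gm13166 and 52.4% for Gm12666, so their reads may be split between copies and their allele counts are uncertain. Of the 34 members with at least 10% of such words shared, 5 were at a paternal share of 0.1 or above, these 4 and Fam221b, and of the 520 others 4 were. The part of shared sequence in these shares was not tested.

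Outside Dnajb5 to Gne the largest remaining shares among members with little shared sequence were those of Ago4, an Argonaute gene, at 7.25% paternal, and Camta1, a transcription activator gene, at 5.82%. They were named after their values had been seen. Library 1 of Abl.2 had the higher paternal percent in 11 of 16 windows. Members were also split by their share of all allelic counts in a library, the mean of the other 4 libraries over the mean of Abl.2, which is a different measure from the TPM shifts below. The median residual percent rose over the classes of this ratio. Both measures have the members' Abl.2 counts as denominator, so part of that relation is built in. The 27 members at least 2-fold higher in the other lines had a median of 0.332% paternal counts in Abl.2. The 509 members within 2-fold had 0.201%, and the 18 members at least 2-fold lower there had 0.0875%. Whether RNA from other libraries contributed was not tested.

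As paternal counts were almost absent, the counts of each allele, called output here, were compared on the scale of 17 other autosomes. The number of copies of chromosome 4 was not measured, so output is not given per copy. Chromosomes 4 and 10 were left out of that scale, because chromosome 10 also stood apart in Abl.2. The members' summed counts in Abl.2 were 1.00 times the mean of the 4 other libraries, with library values of 1.00 and 0.999 (mean 1.00 ± 0.003, SD, n = 2). The libraries of Abl.3 were at 0.994 and 1.00, and those of Abl.4 at 1.01 and 0.993, so the groups overlapped (exact permutation test of 2 libraries against 4, two-sided p = 0.933; the smallest p this design allows is 0.133). Maternal counts alone were 1.99 and 1.98 times the other lines, and paternal counts 0.0096 and 0.0089 times. These 2 ratios restate the share that chose the chromosome and carry no test.

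Among 17 other autosomes summed ratios ran from 0.902 to 1.05 and maternal ratios from 0.839 to 1.09. The summed output of chromosome 4 lay inside that range, and its maternal output lay above it. By window, the summed ratio of Abl.2 ran from 0.819 in the first window to 1.23 from 90 to 100 Mb. The maternal ratio ran from 1.70 from 130 to 140 Mb to 2.41 from 140 to 150 Mb. The paternal ratio was at most 0.050, in the window of Clta and Dnajb5.

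**Figure D3:**
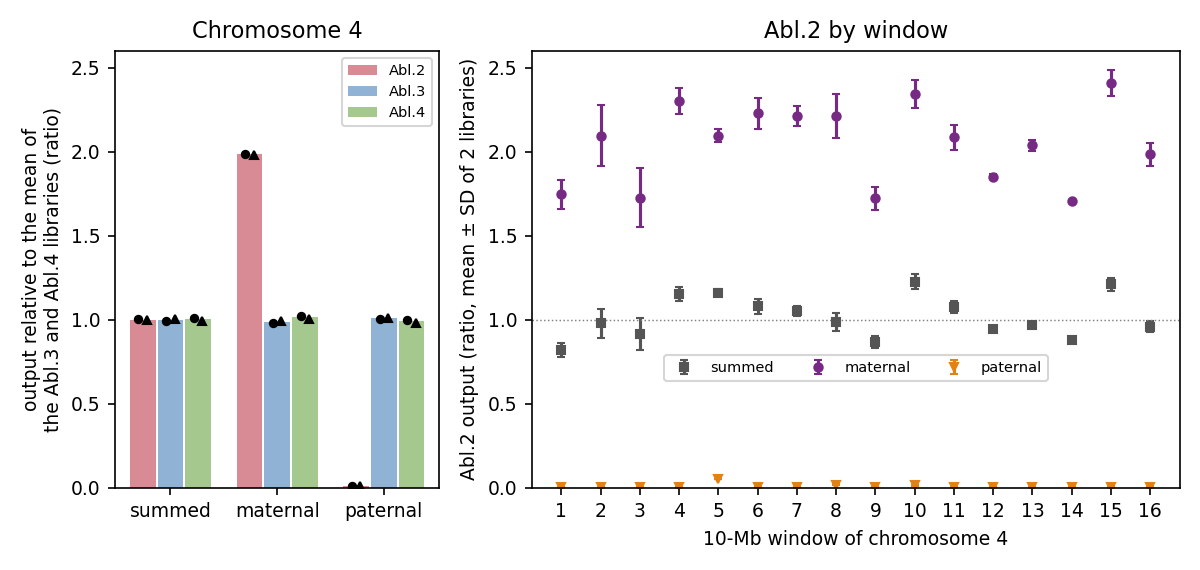
Output of chromosome 4 relative to the mean of the Abl.3 and Abl.4 libraries (vertical axes, ratio, scaled to 17 other autosomes), for the whole chromosome by line (left, bars are means and points the 2 libraries) and for Abl.2 by 10-Mb window (right, mean ± SD). Summed output of the windows lies between 0.819 and 1.23, while maternal output lies between 1.70 and 2.41 and paternal output at or below 0.050.

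Abundance, which did not choose the members, was read from TPM of both alleles together. Of 547 members in the abundance table, 523 had a mean of at least 1 TPM and were tested with limma on log2(TPM + 1), and p-values were adjusted over 11003 genes by the Benjamini-Hochberg method. In Abl.2 against the mean of Abl.3 and Abl.4, 131 members rose, or 25.0%, beside 20.8% of all genes tested. In the same contrast 74 fell, or 14.1%, beside 16.4%. The 205 members called in either direction compare with 37.2% of all genes, so the share of members that changed was near the background. The median member shifted by 0.10 on the log2 scale, beside 0.04 for all genes and medians of −0.01 to 0.09 for each of 17 other autosomes. Chromosome 10 had a median of 0.56 with 69.9% of its genes higher.

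The spread of the shifts was also compared. The interquartile range of the members' shifts was 0.499, beside 0.367 to 0.490 on 17 other autosomes. With the main settings, both the median and the interquartile range of chromosome 4 were the highest of these 18 by a small margin. Of the members, 391 shifted by less than 0.5 on the log2 scale and 39, or 7.46%, by at least 1, beside 1.86% to 7.09% on the 17 other autosomes. The libraries of Abl.2 lay entirely above or below the other 4 for 244 members, and for 39.6% of all genes tested. Against Abl.3 alone 207 members were called, beside 39.8% of all genes. Of these 146 rose and 61 fell, beside 25.9% and 14%. Against Abl.4 alone 188 were called, beside 33.5%, and 102 rose and 86 fell, beside 15% and 18.4%. These contrasts share the libraries of Abl.2.

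Window medians ran from −0.12 in the window from 90 to 100 Mb to 0.25 from 80 to 90 Mb. Counts per window were set beside the 20.8% of all genes that rose and the 16.4% that fell. In the window from 40 to 50 Mb, 22 of 56 tested members rose and 10 fell, with a median of 0.20. From 130 to 140 Mb 23 of 92 rose and 9 fell, with a median of 0.14, and from 140 to 150 Mb 16 of 48 rose and 6 fell, with a median of 0.19. Rises did not outnumber falls in 5 windows, with 1 and 2 of 10 from 0 to 10 Mb, 1 and 1 of 13 from 60 to 70 Mb, 0 and 1 of 4 from 70 to 80 Mb, 3 and 4 of 16 from 90 to 100 Mb and 7 and 7 of 47 from 110 to 120 Mb. From 50 to 60 Mb 7 rose and 6 fell of 22. Whether windows differed from each other was not tested. Without library 1 or 2 of Abl.2 the count of members that rose was 65, and the count that fell was 41 or 45, so the number of calls depends on having both libraries.

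**Figure D4:**
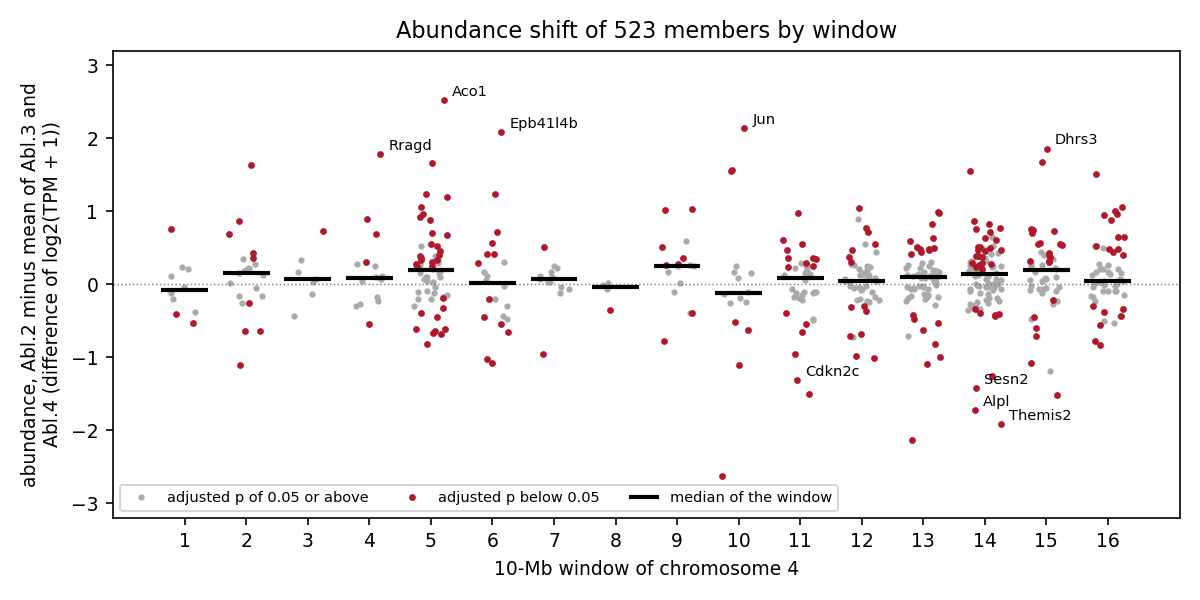
Abundance of each tested member in Abl.2 minus the mean of Abl.3 and Abl.4 (vertical axis, difference of log2(TPM + 1)) by 10-Mb window (horizontal axis), with members at an adjusted p below 0.05 in red and the window median as a bar. Window medians lie between −0.12 and 0.25 while single members reach from −2.63 to 2.52.

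Aco1, the cytosolic aconitase that also acts as iron regulatory protein, rose the most among the members named by rule. It was at 35.5 and 35.9 TPM in Abl.2, 1.36 and 0.70 in Abl.3, and 19.7 and 19.1 in Abl.4. The shift was 2.52 ± 0.15 (log2, SE, adjusted p = 6.26e-05). The level in Abl.3 was far below the other lines. The Abl.2 libraries stood above all others, which the rule for naming rises required. Jun, an AP-1 transcription factor gene, was at 1204 and 925 TPM in Abl.2, beside 169 and 139 in Abl.3 and 396 and 345 in Abl.4, a shift of 2.14 ± 0.14 (adjusted p = 9.61e-05).

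Epb41l4b, which encodes a protein of the band 4.1 family, was at 138 and 147 TPM in Abl.2, 20.2 and 20.9 in Abl.3, and 49.7 and 54.7 in Abl.4. Its shift was 2.09 ± 0.08 (adjusted p = 9.62e-06). Dhrs3, a retinaldehyde reductase gene, was at 87.2 and 83.7 TPM in Abl.2 and between 19.1 and 27.8 in the others, a shift of 1.86 ± 0.09. Rragd, a Rag GTPase gene of amino acid signalling to mTORC1, was at 18.7 and 19.1 TPM in Abl.2, 7.35 and 8.87 in Abl.3, and 2.69 in both libraries of Abl.4. Its shift was 1.78 ± 0.11. In each of these 4 genes besides Aco1 the maternal allele was also the higher one in both other lines, with mean maternal shares of 0.650 to 0.955 in Abl.3 and 0.646 to 0.865 in Abl.4.

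Among the falls, Themis2, a signalling scaffold gene of B cells and macrophages, was at 11.2 and 9.94 TPM in Abl.2, 41.8 and 37.6 in Abl.3, and 47.9 and 43.8 in Abl.4. The shift was −1.91 ± 0.09 (adjusted p = 3.35e-05). Alpl, the tissue-nonspecific alkaline phosphatase gene, was at 164 and 155 TPM in Abl.2, beside 676 and 606 in Abl.3 and 459 and 408 in Abl.4, a shift of −1.72 ± 0.08. Both were lower in Abl.2 than in any other library, which the rule for naming falls required.

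Sesn2, a stress-induced inhibitor of mTORC1 signalling, shifted by −1.42 ± 0.10, with mean maternal shares of 0.382 and 0.396. Cdkn2c, the p18 inhibitor of cyclin-dependent kinases, was at 60.7 and 56.5 TPM in Abl.2 and 140 to 157 elsewhere, a shift of −1.32 ± 0.08. Its maternal shares of 0.559 and 0.529, like those of Themis2 at 0.562 and 0.514, were slightly above equality.

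The relation of abundance to allelic share was then described with no library in common, by setting the maternal share in Abl.4 against the abundance of Abl.2 minus Abl.3. Over bins of rising maternal share the median shift of the members rose at each step. It was −0.24 for 15 members at a share of at most 0.3, −0.02 for 98 from 0.3 to 0.45, and 0.18 for 286 from 0.45 to 0.55. It was 0.27 for 101 members from 0.55 to 0.7 and 1.14 for 23 above 0.7. The same bins of 17 other autosomes had medians of 0.09, 0.09, 0.10, 0.08 and 0.15. Over 523 members Pearson's r was 0.388, beside 0.029 over 7046 genes of the other autosomes and −0.151 to 0.200 on each of them. Genes are not independent replicates, and the members share their libraries and their chromosome.

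With the lines exchanged, the maternal share in Abl.3 against the abundance of Abl.2 minus Abl.4, the medians were −0.42, −0.12, 0.00, 0.15 and 0.50. Those of the other autosomes lay between −0.10 and −0.02. Pearson's r was 0.236 over the members and −0.014 over the other autosomes, with −0.150 to 0.192 on single chromosomes. Both versions use the libraries of Abl.2. Members above 0.7 in Abl.4 include Aco1, Epb41l4b and Dhrs3, and members at or below 0.3 include Clta and Lpar1. Leaving out members with a paternal share of 0.01 or above in Abl.2 gave r of 0.407 and 0.258 over 495 members. That exclusion was added after the data had been seen.

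**Figure D5:**
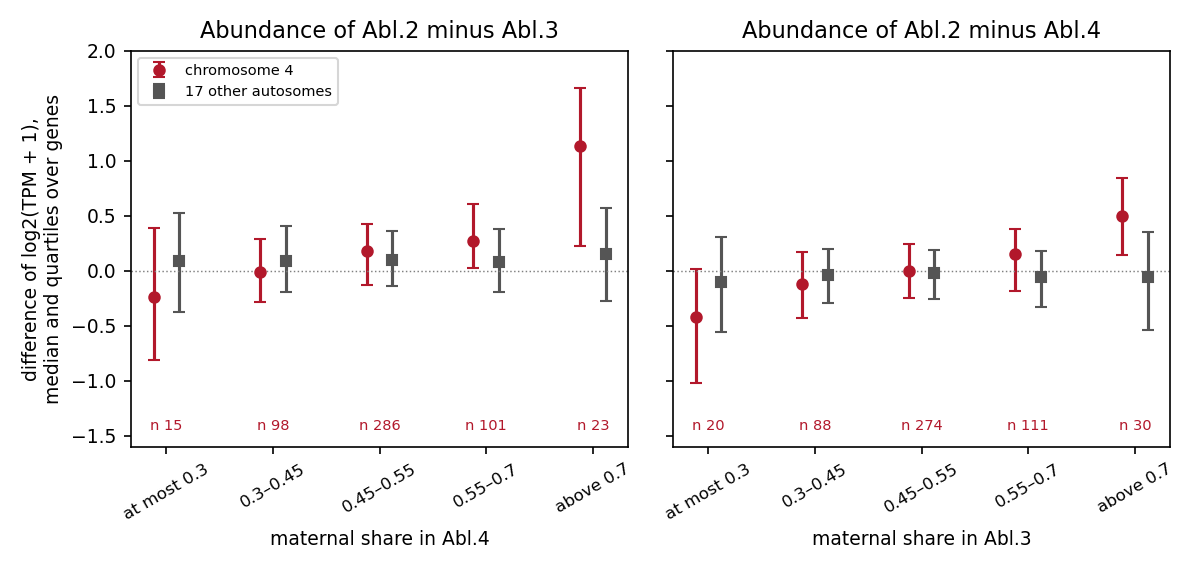
Abundance of Abl.2 minus Abl.3 by the maternal share in Abl.4 (left) and of Abl.2 minus Abl.4 by the share in Abl.3 (right), as the median and quartiles of the difference of log2(TPM + 1) over genes in each bin. Members of chromosome 4 rise from −0.24 to 1.14 and from −0.42 to 0.50 across the bins, while genes of 17 other autosomes stay between −0.10 and 0.15.

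In the lines with both alleles, members were tested for allelic imbalance with edgeR's quasi-likelihood test on the allelic counts, adjusted over 8702 genes. These genes, the background below, include those of chromosome X, where the minor allele took only 0.305% to 1.59% of counts. In Abl.3 229 of 554 members were imbalanced, 126 towards the maternal and 103 towards the paternal allele, beside 45.1% of all genes in either direction. The members' share of 41.3% was near that background. In Abl.4 212 members were imbalanced, 113 maternal and 99 paternal, which is 38.3% beside 39.9%. Between Abl.3 and Abl.4 the allele ratio differed for 58 members, 10.5% beside 16.5% of all genes. It was higher in Abl.3 for 30 and lower for 28, beside 8.53% and 7.93%. The test of whether chromosome 4 had fewer such genes was not made. Without library 1 or 2 of Abl.3 the imbalanced members of that line were 143 or 140, and the members that differed between lines 35 or 33. DESeq2 called 134, 130 and 29 members in these 3 comparisons.

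Aco1 was at maternal shares of 0.022 and 0.014 in Abl.3, from 270 and 147 counts, and at 0.998 and 1 in Abl.4, from 2900 and 2829 counts. Its allele was thus opposite in the 2 lines, and in Abl.2 the share was 0.999 with 5898 and 7774 counts. The line with the paternal allele was the one where Aco1 was scarce. Mrps15 had maternal shares of 0.002 in both libraries of Abl.3 and 0.644 and 0.626 in Abl.4. Trnau1ap, which takes part in selenocysteine incorporation, had 2 and 0 maternal counts of 377 and 301 in Abl.3, and 242 of 484 and 240 of 488 in Abl.4, a share near equality.

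In the other direction Galnt12, a glycosyltransferase gene, had mean maternal shares of 0.999 in Abl.3 and 0.884 in Abl.4, and Spata6, a spermatogenesis gene, 0.950 and 0.642. Epb41l4b had 0.955 and 0.741. In Abl.2 all of these members were maternal at 0.998 or above. Lpar1, a lysophosphatidic acid receptor gene, was named after its values had been seen. It had 562 and 747 maternal counts and no paternal count in Abl.2, but mean maternal shares of 0.242 in Abl.3 and 0.052 in Abl.4. Its maternal output in Abl.2 was 5.0 times that of the other lines while its summed output was 0.465 times. Members with a mean share of at least 0.9 in both Abl.3 and Abl.4 were Coro2a, Hook1, Sytl1, Arhgef10l and Pramef8.

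Chromosome 4 carries several genes of B cell biology and growth control. Of 9 listed B-lineage and signalling genes 7 were members and were tested for abundance, and 4 rose and 1 fell, beside 20.8% and 16.4% of all genes tested. Pax5, the transcription factor that maintains B cell identity, was at 246 and 207 TPM in Abl.2, 56.2 and 64.0 in Abl.3, and 156 and 165 in Abl.4, a shift of 1.19 ± 0.10 (adjusted p = 0.000252). Pik3cd, the PI3K delta catalytic subunit gene, was at 396 and 376 TPM in Abl.2 and between 224 and 243 in the others, a shift of 0.73 ± 0.06. Jak1, a cytokine receptor kinase, shifted by 0.36 ± 0.06 and Cd72 by 0.27 ± 0.08, although both were below Abl.4 in Abl.2. Lyn, a kinase of B cell receptor signalling, shifted by −0.40 ± 0.07. The calls of Jak1 (adjusted p = 0.0553) and Lyn (adjusted p = 0.0545) were lost without 1 library of Abl.2, and that of Cd72 under 7 alternatives (adjusted p up to 0.194). Bach2 and Runx3 did not pass the test. The list's median shift was 0.27, beside 0.04 for all genes, and Pax5, Pik3cd, Jak1 and Lyn were at 0.996 to 0.999 maternal in Abl.2.

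Of 10 listed genes of cell cycle and genome upkeep 8 were tested, and 3 rose and 3 fell, beside 20.8% and 16.4% of all genes, with a median shift of 0.11. Cdkn2b, the p15 inhibitor, was at 26.9 and 25.3 TPM in Abl.2 and 31.6 and 27.1 in Abl.3, but at 4.34 and 5.40 in Abl.4, so its shift of 1.03 ± 0.12 came from the comparison with Abl.4. Plk3, a polo-like kinase, and Mtap, of methionine salvage, also rose. Cdkn2c, the single-strand DNA binding gene Rpa2 and the break repair gene Nbn fell. The neighbouring tumour suppressor gene Cdkn2a shifted by 0.59 ± 0.19 (adjusted p = 0.0504). The calls of Plk3 (adjusted p up to 0.0948), Mtap (0.140) and Nbn (0.254) were lost without a library.

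Of 5 ribosomal protein genes 4 were tested, and 1 rose and 1 fell, beside 20.8% and 16.4% of all genes. Rps6 shifted by 0.28 ± 0.08 and Rpl22 by −0.56 ± 0.13, both past the threshold with all libraries. The call of Rps6 was lost under 6 alternatives (adjusted p up to 0.249) and that of Rpl22 under 4 (adjusted p up to 0.148). Among them were leaving out either library of Abl.2 and applying no filter on low values, and for Rps6 also leaving out either library of Abl.3 or library 1 of Abl.4, for Rpl22 library 2 of Abl.4. Rps20 was at −0.37 without passing. The list's median was −0.29. Pseudogene copies share 43.8% of the 50-base words of Rps6, so its counts are uncertain. Of 6 metabolic genes 5 were tested and Aco1 alone passed, beside 37.2% of all genes, with a list median of −0.04. The glycolytic enzyme Eno1 was at 1684 and 1640 TPM in Abl.2 and between 1719 and 1925 elsewhere. None of 5 chromatin genes passed, among them Hdac1 at −0.15 and Rbbp4 at 0.10, against 37.2% of all genes. Of 7 TNF receptor family genes 3 were members and were tested, and 1 passed, beside 37.2% of all genes. Tnfrsf1b, the TNF receptor 2 gene, shifted by 0.32 ± 0.09, and its call was lost under 8 alternatives, with adjusted p up to 0.204.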

How the data were processed

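RNA-seq libraries of 3 lines, 2 each, were compared. The authors deposited whole-number counts of the maternal and the paternal allele at SNPs within each gene, per the file headers. They deposited TPM per library, obtained with DESeq2 per the file headers, and per line the maternal fraction of allelic counts between confidence limits. STAR 2.5.4a, SAMtools, GATK and DESeq2 are named in the submitters' processing notes, with no role or order. Whether a read over several SNPs was counted once is not given in the sources used here. Errors here would enter every share.

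Groups and replicate numbers come from the sample titles. A share is maternal counts over both alleles' counts. Genes needed 20 counts in each library. Allelic counts were tested with edgeR 4.0.16 (quasi-likelihood, an intercept per library, an allele effect per line, 1 library size for both alleles). For abundance, limma 3.58.1 was fitted to log2(TPM + 1) with a trended prior, for genes at a mean of at least 1 TPM, in 1 fit over 6 libraries, with Benjamini-Hochberg adjustment and a threshold of 0.05. This scale understates changes of low genes. The design named a test for each possible unit of the abundance table, and limma was the one for normalised values. TPM keep no depth. All 554 members have the same start in GENCODE M21 (GRCm38), which gave overlaps and 50-base words shared between transcripts. DESeq2 1.42.0 served as an alternative, and scripts were tested on simulated data.

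Named members were the first and last by position, the 5 with the highest paternal share and the 5 with the most paternal counts in Abl.2. For abundance they were the 5 largest rises and falls among called members with separated libraries and a mean log2 value of at least 3. For the difference between Abl.3 and Abl.4 they were the 3 largest each way with at least 100 counts per library. Members of 6 gene lists were named too. A few items that this rule names are not reported here. Members and lists were chosen with earlier results of these data known.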

Additional observations from a re-analysis of the deposited data

Results flagged for a closer look

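For 6 members of chromosome 4 the log2 ratio of maternal to paternal counts differed between Abl.3 and Abl.4 by the test of the difference itself (edgeR's quasi-likelihood test, adjusted over 8702 genes). They are the largest differences each way among called members with separated libraries and at least 100 counts in each library. Where a library had no count of an allele, the fitted value depends on the prior count and is no bound.

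The ratio was higher in Abl.3 for Galnt12 by 7.46 (adjusted p = 2.66e-05), for Spata6 by 3.41 (adjusted p = 3.16e-06) and for Epb41l4b by 2.87 (adjusted p = 1.98e-07). Galnt12 had 1 and 0 paternal counts in Abl.3 and 42 and 74 in Abl.4. Spata6 had 33 and 20 paternal counts of 506 and 562 in Abl.3, and 379 and 486 of 1138 and 1271 in Abl.4.

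The difference, Abl.3 minus Abl.4, was −15.48 for Aco1 (adjusted p = 1.39e-09), −9.69 for Mrps15 (adjusted p = 1.26e-10) and −8.23 for Trnau1ap (adjusted p = 1.25e-06). In Abl.4 Aco1 had 6 and 0 paternal counts.

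For 3 of the 6 members the size of the difference rested on single libraries, and each call held. Aco1 was at −20.21 without library 1 of Abl.4 and −14.53 without library 2. Trnau1ap was at −11.44 without library 1 of Abl.3 and −7.45 without library 2, and Galnt12 at 9.85 and 6.72 without the same libraries. In both libraries of each line these 6 members lay on the side given here, which their choice by separated libraries required.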

How the results depend on the processing

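The median of the members' shares gave 99.8%, 50.8% and 50.2% maternal in Abl.2, Abl.3 and Abl.4. The lowest window of Abl.2 was at 97.4% with windows of 5 Mb and 98.4% with 20 Mb. Residual paternal counts in Abl.2 were 0.254% without the 10 members with the most, 0.603% without members that overlap another gene and 0.246% without Dnajb5 to Gne, an alternative chosen after seeing the data. At 50 counts, 5 members remained above a paternal share of 0.1.

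The median abundance shift was 0.076 with a pseudocount of 5, 0.0744 after quantile normalisation and 0.0724 after centring on other autosomes. Leaving out a replicate gave 0.0722 to 0.106. The members' median minus that of all genes was 0.063 with all libraries. It was 0.035 without library 1 of Abl.4, and up to 0.061 without another library. A change of at least 1 left 21 rises and 17 falls, and leaving out a replicate gave 65 to 128 rises and 41 to 77 falls.

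Summed and maternal output were 0.981 and 1.95 when scaled to the whole library, and 1.02, 2.01 and 0.0042 (paternal) as medians of members. Without 1 replicate summed output was 0.998 to 1.00, maternal 1.97 to 2.00 and paternal 0.0089 to 0.0096. DESeq2 called 134 members in Abl.3, 130 in Abl.4 and 29 between them; without 1 replicate the counts were 140 to 241, 155 to 209 and 33 to 52. The correlation of share and abundance was 0.236 with the lines exchanged and 0.292 as Spearman's rho, the latter added after seeing the data.

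The replicate block gave 160 rises and 95 falls and kept the abundance calls of the named genes that had passed; it was not run for the allelic tests. Correlations of same-numbered libraries over 11003 genes were 0.104, 0.187 and 0.161. The labels tie the number to no shared batch, and with 2 pairs per comparison it was not settled whether the numbers pair the libraries. Of the named genes' values under the alternatives 297 stayed on their side of the threshold, 39 lost it and 0 reversed. Allelic depth limits members with few counts, and TPM keep no depth.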
